A study of Arabidopsis thaliana with 3 samples.

Results

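A set of 57 genes was about 2 to 4 times lower in ABAP1OE than in wild-type flower buds and stayed close to wild type in open flowers and in siliques. They are 1.05% of the 5413 genes that an array probe measured singly. A gene was kept when its flower bud log2 ratio of ABAP1OE over wild type lay above -2.2 (4.59-fold lower) and at or below -1 (2-fold lower). Both other ratios had to lie within 1.5-fold of wild type. Of the 60 genes that met these limits, *EC1.1*, *UBC31* and AT1G52680 were left out by name, as were 7 further genes that did not meet them. The genes were thus chosen by their ratios at all 3 stages, and the pattern itself is a description that carries no test.

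The ABAP1OE plants carried the *ABAP1* coding region behind the CaMV 35S promoter, which is active in most tissues, in the Col-0 background, and homozygous plants could not be obtained. Wild-type Col-0 plants were the comparison at each stage. Pooled organs were hybridised on 2-colour arrays of long oligonucleotides: buds of stage 13, open flowers of stage 14, and young fruits, the siliques, covering stages 15 to 16. The labels name 3 biological replicates, which the authors combined into 1 ratio per probe and stage. Each value below is therefore a single log2 ratio of ABAP1OE over wild type with no replicate error, and no test between genotypes could be made.

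ABAP1 is a plant protein with armadillo repeats and a BTB domain that binds transcription factors and restrains DNA replication and transcription. Around the opening of the flower, pollen completes its maturation, petals and filaments expand, and the embryo sac becomes ready for fertilization. In whole organs, fewer cells of a type and less RNA per cell cannot be told apart.

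In flower buds the 57 ratios ran from -2.08 to -1.01 with a median of -1.33, a 2.51-fold lower level, against a median of 0.01 over all 5413 genes. Of the 57 genes, 28 were less than 2.5-fold lower, 17 were 2.5-fold to 3-fold lower and 12 at least 3-fold lower. Their median was -0.07 in open flowers (range -0.58 to 0.50) and -0.04 in siliques (range -0.56 to 0.57). The spread of these 2 sets of values was limited by the choice of the genes. At least 2-fold lower levels in buds were found for 4.4% of all genes, and 2.42% lay in the bud range used here.

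**Figure D1:**
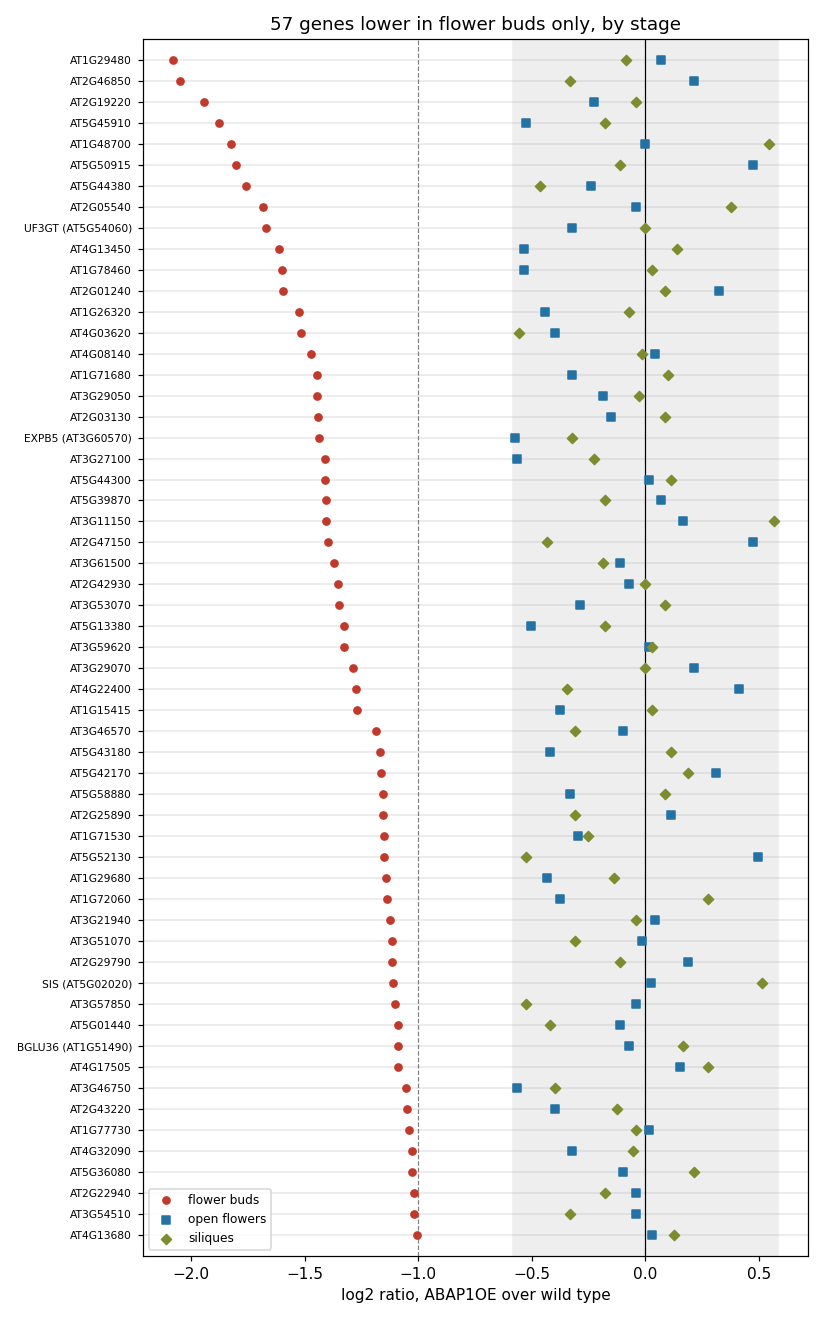
Log2 ratio of ABAP1OE over wild type (x axis) for each of the 57 genes (y axis, ordered by flower buds) at 3 stages, 1 combined ratio per point. The dashed line is 2-fold lower and the grey band is within 1.5-fold of wild type. Flower bud values run from -2.08 to -1.01, while the other stages scatter on both sides of 0.

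The lowest ratio of the set belonged to AT1G29480, at -2.08 in buds, 0.07 in open flowers and -0.08 in siliques. Next to it stood AT2G46850, at -2.05, 0.21 and -0.33 in the same order of stages, and AT2G19220, at -1.94, -0.23 and -0.04. Levels in buds were thus about 4-fold lower for these genes, which carry no functional description in the sources used here. AT5G45910 was at -1.88 in buds, then -0.53 in open flowers and -0.18 in siliques, with the lower of its later values in open flowers. AT1G48700 went from -1.83 in buds to 0 in open flowers and 0.55 in siliques, which gave it the largest distance of the 57 genes between buds and the mean of the later stages, at -2.10. For AT5G50915 the ratio was -1.80 in buds, 0.48 in open flowers and -0.11 in siliques. AT5G44380 had -1.76, -0.24 and -0.46, and AT2G05540 had -1.68, -0.04 and 0.38.

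A role could be given for 21 of the 57 genes, from the names in the gene table or from the descriptions in the study's list of genes changed in buds. Most of these 21 are thus genes that the study chose on the same arrays, and their lower level in buds is not independent evidence. The other 36 genes are given by their locus only.

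Among the enzymes, *UF3GT*, a glycosyltransferase that adds sugars to flavonoid pigments, had the lowest value. Its bud ratio was -1.67, followed by -0.32 in open flowers and 0 in siliques. The zinc-binding dehydrogenase gene AT1G26320 was at -1.53 in buds, -0.44 in open flowers and -0.07 in siliques. AT3G51070, of the methyltransferases that use S-adenosylmethionine, was at -1.12, -0.01 and -0.31 at these stages. *BGLU36*, a beta-glucosidase gene of the enzymes that release glucose from conjugates, was at -1.09, -0.07 and 0.16. In siliques the 4 genes lay between -0.31 and 0.16, and AT1G26320 stood lowest of them in open flowers.

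Named relatives of *UF3GT* and *BGLU36* were measured too. Of 19 other genes named as UDP-glycosyltransferases, 0 reached a 2-fold lower bud level, with a median of -0.12 and a range of -0.73 to 0.58. Of 6 other *BGLU* genes 0 were 2-fold lower, with a median of -0.01 and a lowest value of -0.44, that of *BGLU47*. These relatives were collected with the values of *UF3GT* and *BGLU36* known, and are set beside them as a description. With 4.4% of all genes at this level in buds, a count of 0 in lists this short sets neither family apart.

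Genes of lipids and the cell wall included *EXPB5*, a beta-expansin gene whose product loosens the wall during growth. *EXPB5* was at -1.44 in buds, -0.58 in open flowers and -0.32 in siliques, so it was lower than wild type at every stage and the gene closest to the limit in open flowers. The 3 other expansin genes measured, *EXPA20*, *EXPA21* and *EXPA24*, were at -0.16, 0.44 and -0.19 in buds. The oleosin gene AT2G25890, of the proteins that coat oil bodies, was at -1.16 in buds, 0.11 in open flowers and -0.31 in siliques. AT5G42170, a GDSL-type esterase gene, was at -1.16, 0.31 and 0.19, higher than wild type at both later stages. AT3G53070 encodes a putative membrane lipoprotein with a lectin domain that binds galactosides, and was at -1.35, -0.29 and 0.08.

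A further group acts at membranes or in traffic inside the cell. The reticulon gene AT2G01240, of proteins that shape the endoplasmic reticulum, was at -1.59 in buds, 0.32 in open flowers and 0.08 in siliques. AT4G03620, described only as related to myosin heavy chains, was at -1.52, -0.40 and -0.56, below wild type throughout. The amino acid transporter gene AT1G71680 had -1.45 in buds, -0.32 in open flowers and 0.10 in siliques. AT3G29070 belongs to the p24 proteins, which sort cargo between the endoplasmic reticulum and the Golgi, and was at -1.29, 0.21 and 0. AT3G54510, of a membrane protein family named for early response to dehydration, was near the limit in buds at -1.02, with -0.04 and -0.33 later. The later values of these 5 genes fell on both sides of wild type.

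Genes with other descriptions were spread over the whole bud range. AT4G13450, of the adenine nucleotide alpha hydrolase-like proteins, was at -1.61 in buds, -0.54 in open flowers and 0.14 in siliques. The SOUL heme-binding gene AT1G78460 was close to it at all stages, with -1.60, -0.54 and 0.03. AT5G44300, of a family associated with dormancy and auxin, returned to wild-type level, with -1.41 in buds, 0.01 in open flowers and 0.11 in siliques. AT5G39870, whose product has no known function and whose description places it in the male gametophyte, was at -1.41, 0.07 and -0.18. AT1G15415, found in the pollen proteome, was at -1.27 in buds, -0.38 in open flowers and 0.03 in siliques. AT2G29790, described as a pseudogene of the maternally expressed gene family but classed as protein coding in the gene table, was at -1.12, 0.19 and -0.11. AT3G46750, of unknown function, was at -1.06, -0.57 and -0.40. Of the 57 genes AT3G46750 had the smallest distance between buds and the mean of the later stages, at -0.57.

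*SIS*, named for a salt-induced serine-rich protein, entered the set through an average. It had 3 probes of its own, the only gene of the 57 with more than 1. Their bud ratios were -0.34, -0.34 and -2.64, with a mean of -1.11, and none of them lay within the bud range used here. In siliques they were at 0.70, 0.70 and 0.15, and in open flowers at -0.20, -0.20 and 0.48. The probes of *SIS* therefore do not give a single level for this gene, and with the median over probes it left the set. The equal values of a pair of its probes are common in the table: of 283 genes with several probes of their own, 227 had the same ratios on all of them.

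For 24 of the 57 genes, *SIS* included, a probe that lists several genes gave a value that the choice did not use. These shared probes list 2 to 5 genes each, so their signal can come from a relative, and they were read on the same arrays. Shared probes of a gene with equal ratios were counted once. Their bud median was -0.09, against -1.22 for the same genes on their own probes. At least 2-fold lower in buds were 2 of the 24 (8.33%), and 15 (62.5%) were below 0. Among the 1737 shared probes of all genes, 5.35% were at least 2-fold lower and 48.8% below 0. The gap between own and shared probe was wide for AT2G46850 (-2.05 and -0.12), AT2G19220 (-1.94 and -0.03) and *UF3GT* (-1.67 and -0.08). For AT1G48700 it was also wide, at -1.83 and -0.16, and its shared probe was above wild type later, at 0.75 in open flowers and 0.90 in siliques. The pollen-described gene AT5G39870 (-1.41 and 0.08), the p24 gene AT3G29070 (-1.29 and 0.12) and the methyltransferase gene AT3G51070 (-1.12 and -0.11) were near wild type on the shared probe as well. *SIS* was at -0.15 there, nearer to its pair of equal probes than to the third. Intermediate values were found for AT2G22940 (-0.64), AT5G01440 (-0.43), AT3G57850 (-0.42) and AT5G58880 (-0.26).

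**Figure D2:**
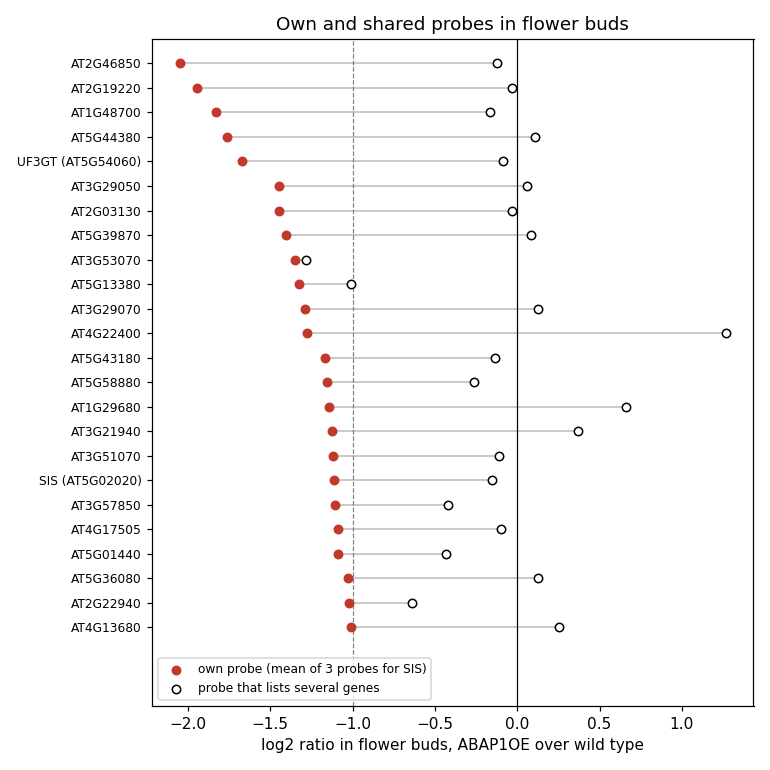
Log2 ratio in flower buds (x axis) of the 24 genes that also lie on a probe listing several genes (y axis). Filled points are the gene's own probe, open points the shared probe, and the dashed line is 2-fold lower. The shared probes of AT3G53070 and AT5G13380 lie at -1.28 and -1.01, and that of AT4G22400 at 1.27.

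In buds, own and shared probes were close for AT3G53070, at -1.35 and -1.28, and for AT5G13380, at -1.33 and -1.01. Later they differed. In open flowers and siliques the shared probe of AT3G53070 was at 0.32 and -0.29, against -0.29 and 0.08 on its own probe. That of AT5G13380 was at 0.06 and 0.01. The shared probe of AT5G13380 also lists AT5G13370, AT5G13360 and AT5G13350, and AT5G13350 had a probe of its own at -0.98 in buds, -0.38 in open flowers and 0 in siliques, just outside the set. AT5G13380 itself was at -0.51 in open flowers and -0.18 in siliques, so both genes with their own probes had the same order of stages. For AT3G53070 the gene on the same shared probe that could be read singly, AT3G53050, went the other way, at 0.73 in buds, -0.04 in open flowers and -0.87 in siliques. In the opposite way AT4G22400 was at -1.27 on its own probe and 1.27 on the shared one. AT1G29680 (-1.14 and 0.66) and AT3G21940 (-1.12 and 0.37) also changed side. Of the genes that share these 24 probes, 11 also had a single-gene probe, and 0 of the 11 reached 2-fold lower in buds (median 0.12, range -0.98 to 0.95). With 4.4% of all genes at that level, a count of 0 among so few genes does not set them apart.

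After the bud stage the 57 genes were spread within the limits of the choice. In open flowers 38 of the 57 genes were within 0.32 of wild type on the log2 scale, 15 were further below and 4 further above. In siliques 43 were within that distance, 10 were further below and 4 above, and 29 genes were within it at both stages. As shares, 66.7% of the 57 were within that distance in open flowers and 26.3% further below, against 86.4% and 6.58% of the 4469 genes, whatever their bud value, that lay within 1.5-fold at both later stages. In siliques 75.4% were within it and 17.5% further below, against 78.2% and 10.6%. These differences were not tested, because the later values were part of the choice. AT4G08140 (-1.48 in buds, 0.04 in open flowers, -0.01 in siliques) and AT3G59620 (-1.33, 0.01 and 0.03) were the flattest of the genes lower than -1.3 in buds. AT2G42930 (-1.36, -0.07 and 0), AT1G77730 (-1.04, 0.01 and -0.04) and AT3G61500 (-1.37, -0.11 and -0.19) were of the same kind. None of these 5 was on a shared probe.

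Below wild type at both later stages were 21 genes, or 36.8%, and above at both were 8, or 14.0%. Among the same 4469 genes these shares were 29.5% and 26.4%. AT3G27100 (-1.41 in buds, -0.57 in open flowers, -0.23 in siliques), AT1G71530 (-1.15, -0.30 and -0.25) and AT2G43220 (-1.05, -0.40 and -0.12) were among those lower throughout. AT3G46570 (-1.19, -0.10 and -0.31), AT4G32090 (-1.03, -0.32 and -0.06) and AT5G01440 (-1.09, -0.11 and -0.42) also stayed below 0. AT3G11150 was above wild type at both later stages, with -1.41 in buds, then 0.16 in open flowers and 0.57 in siliques, and so was AT4G17505, with -1.09, 0.15 and 0.28.

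On opposite sides of wild type in open flowers and siliques stood 24 genes, or 42.1%, against 38.8% of the 4469 genes within the same later limits. The last 4 of the 57 were at 0 at a later stage. AT5G52130 was at -1.15 in buds, then 0.50 in open flowers and -0.53 in siliques, and AT2G47150 at -1.40, 0.48 and -0.43. AT1G72060 ran the other way, from -1.14 in buds and -0.38 in open flowers to 0.28 in siliques, as did AT5G43180, with -1.17, -0.42 and 0.11, and AT5G58880, with -1.16, -0.33 and 0.08. Of the remaining genes, AT3G29050 was at -1.45, -0.19 and -0.03 over the 3 stages and AT2G03130 at -1.44, -0.15 and 0.08, both close to wild type after the bud stage. AT3G57850 was at -1.10, -0.04 and -0.53, lower in siliques than in open flowers. AT5G36080 (-1.03, -0.10 and 0.21), AT2G22940 (-1.02, -0.04 and -0.18) and AT4G13680 (-1.01, 0.03 and 0.12) were close to the limit in buds. Between differing probes of the same gene the typical SD was 0.17 (buds), 0.15 (open flowers) and 0.26 (siliques). These describe probes and not plants, and many of the later differences are of this size.

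The 131 genes in the bud range were sorted by the later stages. Whatever their bud value, 4469 of all 5413 genes lay within 1.5-fold at both later stages. Of the 131 genes 60 did, a smaller part than among all genes, and these 60 are 1.11% of the 5413. In open flowers alone 33 were further below wild type, 18 were further below at both later stages and 9 in siliques alone. Further above wild type were 5 in siliques alone and 1 in open flowers alone. Of the last 5 genes, 2 were further above at both later stages, and 3 were further below at one and above at the other. Of the 131 genes, 53 were in all more than 1.5-fold lower in open flowers and 28 in siliques. These counts were not tested against each other. Those further below or above wild type stand here without the matching shares of all genes and are not read as a trait of the 131.

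**Figure D3:**
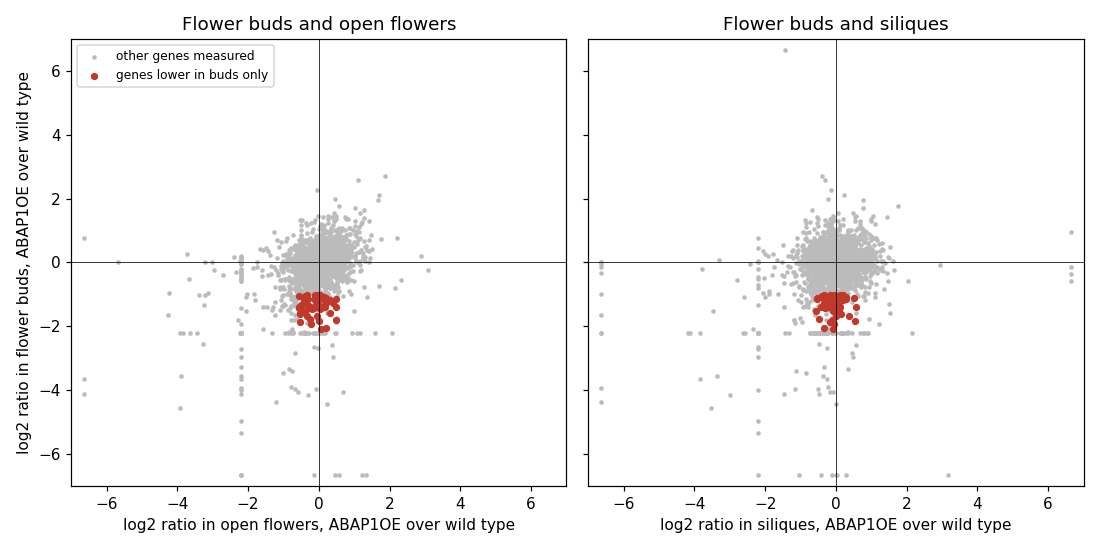
Log2 ratio in flower buds (y axis) against open flowers (left, x axis) and siliques (right, x axis) for all 5413 genes, ABAP1OE over wild type. Red points are the 57 genes, which fill the block between -2.08 and -1.01 in buds, and grey points are all other genes.

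With the same limits turned to each stage and direction, the largest count was that of genes lower in buds only. It was 60 before the genes left out by name, against 27 higher in buds only (0.499%). In open flowers 9 genes (0.166%) were lower only there and 18 (0.333%) higher only there. In siliques 21 (0.388%) were lower and 29 (0.536%) higher. The columns differ in spread, with an interquartile range over transcript probes of 0.33 in buds, 0.31 in open flowers and 0.43 in siliques.

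**Figure D4:**
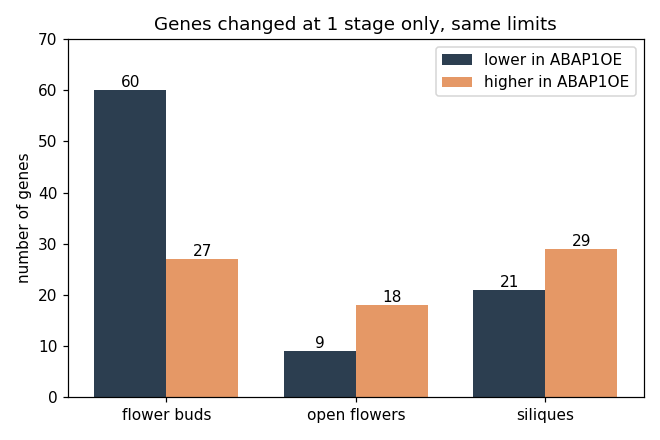
Number of genes (y axis, from 0) lower (dark) or higher (light) in ABAP1OE at 1 stage only (x axis), with the limits of the flower bud set applied to each stage. The bars stand at 60 and 27 in flower buds, 9 and 18 in open flowers and 21 and 29 in siliques, and carry no error because each stage has 1 combined ratio.

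The values next to the limits show how the set was bounded. Just inside the upper limit in buds were AT4G13680 (-1.01), AT2G22940 and AT3G54510 (both -1.02), and just outside were AT3G56610 (-0.99), the pollen LIM protein gene *PLIM2b* and AT5G13350 (both -0.98). At the lower end, apart from *UBC31*, which was left out by name, no gene within the later limits lay between AT1G29480 at -2.08 and the step at -2.21, where AT1G29100, AT1G48360 and AT1G49010 were the first outside. In open flowers *EXPB5* (-0.58) was the last inside, next to AT3G27100 and AT3G46750 (both -0.57), and AT2G19010 (-0.59) and AT5G38950 (-0.60) were the first outside. In siliques AT3G11150 was the last inside at 0.57, and AT1G50690 (0.61) and AT2G23100 (-0.61) the first outside.

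Of 36 empty control spots, 29 were at or below -2.2 in buds, a range that also holds 107 genes. In the bud range of the set lay 1 empty spot, and 0 of 36 met its limits at all stages. Empty spots could hardly meet them, since only 2 were within 1.5-fold in open flowers and 3 in siliques. Their median was -2.21 at each stage, the value of the step named above. A count of 0 allows a share of up to 8.33% by counting error and does not bear on the set. Without intensities, the brightness of the spots behind a ratio is not known.

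By position the 57 genes lay on all chromosomes, with 11 on chromosome 1, 11 on chromosome 2, 14 on chromosome 3, 7 on chromosome 4 and 14 on chromosome 5. Chromosome 1 held 19.3% of them and 24.9% of all genes measured, and chromosome 2 held 19.3% and 14.9%. Chromosomes 3, 4 and 5 held 24.6%, 12.3% and 24.6% of them, against 21.6%, 14.7% and 24.0% of all genes. These differences were not tested. AT1G71530 and the transporter gene AT1G71680 were direct neighbours in the TAIR10.1 gene table, with 0 coding genes between them, and had bud ratios of -1.15 and -1.45. AT3G29050 and the p24 gene AT3G29070 had 1 coding gene between them, AT3G29060, which was at -0.01 in buds. AT5G44300 and AT5G44380 had 10 coding genes between them, none of them with a probe of its own. The median gene length in that table was 1556 bases for the 57 genes and 1956 for all genes measured.

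Lists of gene families found by name could reach few of these genes, since 4 of the 57 and 705 of all 5413 genes carry a name beyond the locus. In the lists, counts of genes at least 2-fold lower in buds stand against 4.4% of all genes, and in lists this short they set no family apart. Of 17 named cell wall and pectin genes 1 was at least 2-fold lower in buds, which was *EXPB5*, and the list's median was -0.06. Of 62 named genes of carbohydrate and secondary metabolism 1 was, which was *UF3GT*, with a median of 0.01. The lists held neither *BGLU36* nor *SIS*, although both carry a name. The other 13 lists held 0 of the 57 genes, and in the 12 with measured genes 0 to 2 genes were 2-fold lower. Among cell type markers, 2 of 22 pollen genes were measured (median -0.89 in buds, 0 at least 2-fold lower), 3 of 10 embryo sac genes (median -0.40, 1 lower) and 1 of 2 nectary genes (-1.08). Of 12 tapetum and 2 photosynthesis genes 0 were measured. With probes of several genes averaged in, 3 pollen genes were at least 2-fold lower in buds, a count that takes in genes with no probe of their own. Ratios carry no level, so the tissue could not be checked by these markers, and the part of pollen in the low bud values was not tested.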

How the data were processed

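The authors deposited log2 ratios (ABAP1OE over wild type) of 2-colour arrays hybridised in both dye orientations, with 3 biological replicates combined into 1 column per stage. How background was corrected and how the arrays were normalized or averaged is not given in the sources used here. The direction of the flower bud column was checked against the signs in the study's list of changed genes, and the other columns rest on their titles. The table held 26545 probes, 71 of them control spots. Of the probes 5784 had 1 gene symbol, 28 of which matched no gene of the TAIR10.1 RefSeq table, 7497 had several, and the rest are unnamed here. Probes with 1 symbol were averaged per locus and required values at all stages. No sequence was used, so a planned search of promoter motifs was not run, and family lists (15 by name, 5 by locus) were matched to symbols and synonyms.

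The members and lists were chosen with earlier results of these data known. Named genes were those with a symbol, the 10 lowest, family members, those with several or shared probes, those next to a limit and chromosome neighbours; genes with a role and genes that illustrate a pattern after the bud stage were named after their values were seen. That the limits were applied as stated was checked on simulated ratios, which does not bear on the genes chosen. Depth is unknown for arrays. Python 3.11.15, numpy 2.4.6, pandas 2.3.3 and matplotlib 3.10.9 were used.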

Additional observations from a re-analysis of the deposited data

Results flagged for a closer look

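Of the set, 4 genes were lower in flower buds and at least 1.4-fold higher than wild type at a later stage, a size chosen after the values were seen. The silique ratios were 0.55 for AT1G48700, 0.57 for AT3G11150 and 0.51 for *SIS*, and the open flower ratio of AT5G52130 was 0.50. AT2G47150 and AT5G50915, both 1.39-fold higher in open flowers, fell just short of this size. The share of all genes that reach it was not counted, so the 4 genes are not read as a trait of the set. At a smaller size, 7.02% of the set lay further above wild type than 0.32 (log2) in open flowers and 7.02% in siliques. Among the 4469 genes within 1.5-fold at both later stages these shares were 7.05% and 11.2%. With 1 combined ratio per stage the difference between stages was not tested. For *SIS* the pattern rests on the mean of 3 probes that differed. Its equal pair was at -0.34 in buds and 0.70 in siliques. The third was at -2.64 in buds, 0.48 in open flowers and 0.15 in siliques. No single probe of *SIS* was both 2-fold lower in buds and at least 1.4-fold higher later.

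Beyond the probes of the 57 genes, 201 transcript probes met the same limits at all stages and were not used for the set. Of all 257 probes that met them, 59 are of 1 named gene, 88 list several genes and 110 have no name here. On the arrays as a whole, 5784 of 26474 transcript probes had 1 gene symbol. Probes of 1 named gene are thus the smaller share with or without this pattern. The probes that met the limits were 1.01% of the transcript probes with ratios at all stages.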

How the results depend on the processing

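No paired analysis was possible because the replicates of a stage were deposited as a single combined column, and for the same reason no replicate could be left out. The number of genes chosen was 57. Where probes of several genes were averaged in, 135 genes were chosen, 36 of the 57 among them. The median of the 57 in buds was then -1.12 in place of -1.33. That setting also takes in genes with no probe of their own, so 135 is not a count out of 5413. Limits of 0.32 and 1 on the log2 scale at the later stages gave 29 and 92 genes, and sizes of 1.5-fold and 3-fold in buds gave 163 and 12, as these limits take more or fewer genes by construction. Counting every transcript probe, named or not, gave 257 probes, a choice made after seeing the data. The median or the farthest probe gave 56 genes each, scaling the columns to the spread of buds gave 58 (54 of the 57 among them), no lower bound gave 72, and the genes left out by name brought it to 60. Centring changed no value, since the columns have a median of 0, and is no check. Of 80 recounts of genes at least 2-fold lower in the lists, 7 moved by over 1.5 times, all with probes of several genes averaged in. All rose, such as pollen markers from 0 to 3, transcription factors from 1 to 8 and carbohydrate and secondary metabolism from 1 to 5. That setting takes in genes with no probe of their own, and the new sizes of the lists were not counted. The counts before and after may thus not be over the same genes, and how much of the rise comes from added genes was not tested. How far the spots stood above background is unknown and limits every ratio.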
